A study of Mus musculus with 31 samples.

Results

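Cells of the single-cell RNA libraries coded 018 and 072 were set against those coded 017, all from mouse spinal cord and labelled ependymal. These 3 libraries gave 2246 cells after a drop rule, of 3285 that the authors' cell table lists over 6 library codes: 362 with code 017, 893 with code 018 and 991 with code 072. Cells were dropped at 4 or more UMIs (unique molecular identifiers, 1 per captured transcript) of Mag, Mog and Cldn11 together, which are genes of mature oligodendrocytes, or at 3 or more of C1ql1 and Pdgfra, genes of oligodendrocyte progenitors. The rule removed 0, 2 and 1 cells from codes 017, 018 and 072. It used those 5 genes, which are given below only as description.

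The series holds 31 mouse samples of the C57BL/6 background. The 6 single-cell RNA samples are labelled Foxj1_tdT or Foxj1_Olig2_tdT, each uninjured and at 2 wpi and 4 wpi, read here as weeks after injury. The name Foxj1-tdT joins an ependymal gene to a reporter of red fluorescence, and the other genotype carries Olig2 as well. The labels give no age, do not say how the alleles were driven or whether animals were pooled, and do not tie any code to a sample. The 3 libraries are therefore called by code, no genotype or time is given to them, and with 1 library a code no test was made between them. The bulk data looked up at the end are 12 libraries of sorted ependymal cells, 2 for each genotype uninjured, at 1 dpi and at 5 dpi, read as days after injury.

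Ependymal cells line the central canal and beat motile cilia, whose genes are under the transcription factor Foxj1. After spinal cord injury they are known to divide and to give rise mainly to scar-forming astrocytes, which carry the intermediate filament protein GFAP. Class I MHC molecules present peptides to T cells on most cell types, and interferons raise their transcription together with that of their light chain, beta-2 microglobulin.

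The defining markers were at like levels in the 3 libraries. Foxj1 read 310.3 CPM (UMIs of a gene scaled to 1000000 UMIs over a library's kept cells) in code 017, 261 in code 018 and 337 in code 072. None of the 10 ependymal markers was 2-fold apart from code 017 in both libraries, which held for most genes. Their median log2 ratios to code 017 were -0.13 and 0.033. Code 017 was the shallowest library, with a median of 2714 UMIs per cell against 5354 and 7038, and mitochondrially encoded UMIs made up 6.78%, 6.25% and 6.04%. Codes 017 and 018 shared 1 cell barcode, 018 and 072 shared 2, and 017 and 072 shared 0.

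In codes 018 and 072 single cells held most UMIs of some genes of other cell types. Whether such a cell was of another type or joined with an ependymal cell was not tested. In code 072, 1 cell held 4928 of the 5030 UMIs of the haemoglobin gene Hbb-bs, which read 0 in 017 and 018. In code 018, 1 cell held 298 of 503 UMIs of the myeloid lysozyme gene Lyz2, and 186 of its 893 cells had at least 1. Lyz2 had 0 UMIs in 017, where a count of 3 cells of 362 sets a limit of 0.829% on cells with a UMI, not on cells that express the gene.

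Most measured genes differed little. Of 3278 genes measured (at least 20 UMIs and 50 CPM in code 017, or in both 018 and 072), 17 were at least 2-fold higher in both libraries than in 017 (0.519%) and 11 at least 2-fold lower in both (0.336%). Leaving out code 018 gave 57 higher genes and leaving out code 072 gave 28 higher and 17 lower, thinning every cell to 1000 UMIs gave 31 and 18 (13 and 7 of the reported genes among them), and without the CPM minimum the counts were 276 and 65. Without a fold threshold, 1311 of the 3278 were above 017 in both libraries and 1210 below it in both. The median log2 ratio over all measured genes was 0.00046 for code 018 and 0.022 for code 072. The 28 genes were chosen by their summed UMI levels in these same 3 libraries. The 17 included the glial filament gene Gfap, the calcium-binding protein gene S100a6, the class I genes H2-D1, H2-K1 and B2m, the interferon-inducible Ifi27 and 5 immediate early genes. Among the 11, Mobp, Mbp and Olig1 are genes of the oligodendrocyte lineage. These counts describe the contrast that chose them and were not tested. Ratios carry exact 95% Poisson intervals, which cover counting error only and not the spread between animals or preparations.

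**Figure D1:**
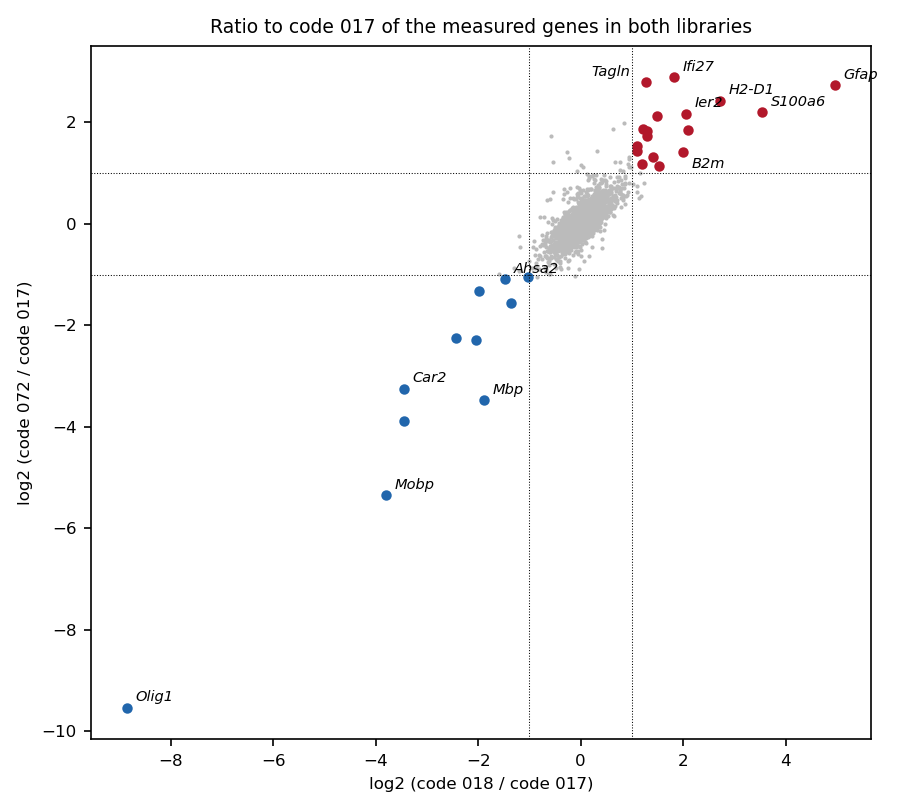
Each point is 1 of 3278 measured genes, plotted by its log2 ratio of code 018 to 017 (horizontal) and of code 072 to 017 (vertical); dotted lines mark 2-fold. The 17 genes past the upper lines are red and the 11 past the lower lines blue, with Gfap farthest to the right and Olig1 at the lower left.

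Class I genes and their light chain were among the higher genes, and their promoters are shown first because the 3 genes were higher together. The 250 bases before the RefSeq start (GRCm38.p6) are printed 5′ to 3′ along the gene, with capitals marking matches to AANNGAAA, the core site of interferon regulatory factors, and to the kappaB site. B2m lies at chr2:122147437-122147686 on the + strand, H2-D1 at chr17:35262844-35263093 on the + strand and H2-K1 at chr17:34000348-34000597 on the - strand, the first of 2 starts listed for that gene.
B2m: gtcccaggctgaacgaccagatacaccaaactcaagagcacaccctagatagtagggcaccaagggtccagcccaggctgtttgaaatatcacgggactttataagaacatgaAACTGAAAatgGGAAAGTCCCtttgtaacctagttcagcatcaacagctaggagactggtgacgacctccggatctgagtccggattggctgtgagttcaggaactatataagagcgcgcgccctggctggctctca
H2-D1: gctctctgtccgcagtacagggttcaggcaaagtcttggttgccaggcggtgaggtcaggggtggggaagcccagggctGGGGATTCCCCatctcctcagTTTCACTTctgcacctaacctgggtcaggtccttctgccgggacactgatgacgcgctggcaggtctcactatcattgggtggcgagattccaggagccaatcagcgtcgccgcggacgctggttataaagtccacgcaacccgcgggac
H2-K1: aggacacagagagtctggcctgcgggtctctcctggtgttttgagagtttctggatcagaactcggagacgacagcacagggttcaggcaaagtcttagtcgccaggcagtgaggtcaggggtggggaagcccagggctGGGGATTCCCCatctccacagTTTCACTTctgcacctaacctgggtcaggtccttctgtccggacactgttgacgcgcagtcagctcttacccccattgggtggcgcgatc
In all 3 the 2 matches lay close together. The core site began 137 bases before the start in B2m, 150 in H2-D1 and 90 in H2-K1, and the kappaB match began 126, 171 and 111 bases before it. H2-D1 and H2-K1 shared a run of 47 identical bases, against at most 8 between either and B2m. Both strands were searched, and 23.9% of 27025 genes in the promoter table had the core site in a window of this length and 8.23% the kappaB site. The longer interferon-stimulated response element, of which the core site is a part, was in B2m alone of the 3 and in 3.46% of genes. Of the 12 higher genes in the table, 3 held the core site and 5 the kappaB site. Also searched were the STAT site, in 3 of the 12 (8.13% of genes), and the AP-1 site, in 1 (7.82%). The cyclic AMP response element was in 1 of the 12 (1.77%) and the serum response element core in 0 (0.074%). These motifs were picked after the promoters had been seen, and a match is no evidence that a factor binds.

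H2-D1, a class I heavy chain gene, read 37.0 CPM in code 017, 243 in code 018 and 199 in code 072. That was 6.56-fold (interval 4.77 to 9.27) and 5.38-fold (3.91 to 7.59) the level in 017. H2-K1, the other classical heavy chain gene, read 65.5, 173 and 163 CPM, or 2.64-fold (2.07 to 3.43) and 2.49-fold (1.95 to 3.22). B2m, the light chain, read 51.2, 206 and 137 CPM, or 4.02-fold (3.05 to 5.38) and 2.68-fold (2.04 to 3.59). All 3 were nearer to each other in codes 018 and 072 than either was to 017. H2-D1 and H2-K1 are close relatives, so reads may have been split between them or with other class I genes.

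The signal was in many cells. With every cell thinned to 1000 UMIs, H2-D1 was seen in 4.42% of 339 cells of code 017 (Clopper-Pearson interval 2.50 to 7.19), in 17.02% of 893 cells of 018 (14.6 to 19.6) and in 16.3% of 991 cells of 072 (14.1 to 18.8). Without thinning the shares were 10.2%, 48.8% and 58.6%. No cell type that lacks class I was at hand as background, since the 201 oligodendrocyte-lineage cells dropped from codes 020 and 073 had it in 31.8%. B2m was more often high in cells high for H2-D1. Of 146 cells of code 018 with 3 or more H2-D1 UMIs, 49.3% had 3 or more of B2m, against 5.76% of the other 747. In code 072 the shares were 37.9% of 214 and 7.08% of 777. Cells with 3 or more H2-D1 UMIs were somewhat deeper (medians of 6566 against 5195 UMIs in 018, 7536 against 6904 in 072), and the part of depth in this was not tested.

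Of 25 listed interferon and class I genes, 5 were measured, 4 were higher and the fifth, Ifitm3, was above 017 in both. H2-D1 and Ifi27 were under 50 CPM in 017 and so were measured only through the libraries where they were high, and 20 listed genes were not measured, so the count describes these 5 genes and not the list. Ifi27, an interferon-inducible gene of the mitochondrial and nuclear membrane, read 20.9, 73.8 and 155 CPM and was the only one of the 4 higher in 072 than in 018. Ifitm3, which restricts virus entry, read 2925, 3876 and 3892 CPM, a far smaller difference from a high level. Below the level needed to be measured, 5 UMIs of the tetherin gene Bst2 in code 017 (4.74 CPM) stood against 47.7 and 58.7 CPM, and the interferon-induced Ifit1 and Ifit3 read 2.85 and 3.796 CPM in 017 against 18.1 and 22.5 in 018 and 28.1 and 38.8 in 072. In 017, 3 cells had an Ifit1 UMI and 4 cells an Ifit3 UMI. The peptide transporter gene Tap1 read 7.59, 6.54 and 6.49 CPM. Only 7 cells of 017 had a Tap1 UMI, too few to tell whether its level differed. These low genes were chosen after their values were seen.

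Of the 4 genes Gfap, S100a6, Emp1 and Socs3, the first 2 were further apart between codes 018 and 072 than the others. Gfap read 9.49 CPM in code 017 (10 UMIs in all), 297 in 018 and 63.4 in 072. It was 31.3-fold (16.99 to 65.5) and 6.68-fold (3.60 to 14.0) the level in 017, and 4.69-fold (4.25 to 5.19) higher in 018 than in 072. Codes 019, 020 and 073 read 5.64, 26.7 and 58.4 CPM. S100a6, a calcium-binding protein gene, read 42.7, 496 and 196 CPM, or 11.6-fold (8.66 to 15.98) and 4.59-fold (3.42 to 6.32). Emp1, a membrane protein gene of reactive glia, read 18.03, 76.5 and 65.3 CPM. Socs3, the feedback inhibitor of gp130 cytokine signalling, read 97.7, 210.2 and 283 CPM. Code 018 was the highest of the 3 for Gfap, S100a6 and Emp1 and code 072 for Socs3.

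Of 8 measured members of the reactive gliosis list (22 genes), 3 were higher and 0 lower, against 0.519% and 0.336% of all measured genes. Of the 8, 4 were measured only through 018 and 072. Among those 4 were Gfap and Emp1, under 50 CPM in 017, so the count describes the measured genes and not the list. The small heat shock protein gene Hspb1 was the 1 member below 017 in both, at 653, 409 and 339 CPM. Lgals3, the galectin of phagocytes and reactive glia, read 138, 311 and 202 CPM. Vim, the filament partner of Gfap, was just under the 2-fold line at 1222, 2418 and 2667 CPM, a smaller fold of 1.98. Serping1, the C1 inhibitor of complement, was too low in 017 to be measured (2 UMIs, 1.90 CPM) and read 53.3 and 28.3 CPM in 018 and 072.

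Gfap was concentrated in few cells. The top 5% of cells by Gfap held 73.03% of its UMIs in code 018 and 65.1% in 072, where the same share for H2-D1 was 39.0% and 31.3%. After thinning, 0.885% of cells of code 017 had a Gfap UMI (0.183 to 2.56), 10.97% of 018 (9.0 to 13.2) and 5.25% of 072 (3.94 to 6.82), against 1.99% of the dropped oligodendrocyte-lineage cells. The unthinned shares were 2.21%, 27.3% and 19.3%. No cell of code 017 had 3 or more Gfap UMIs, against 97 cells of 018 and 55 of 072. S100a6 reached 3 UMIs more often in those cells, in 61.9% of the 97 against 15.2% of the other 796 in 018. In 072 it was 38.2% of the 55 against 15.7% of the other 936. Most cells with 3 or more S100a6 UMIs were still outside the Gfap cells, 121 against 60 in 018 and 147 against 21 in 072. Serping1 reached 3 UMIs in 25.8% of the Gfap cells against 0.754% of the rest in 018, and in 12.7% against 0.855% in 072. The Gfap cells had medians of 7308 and 8357 UMIs, above 5228.5 and 6984 in the rest.

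**Figure D2:**
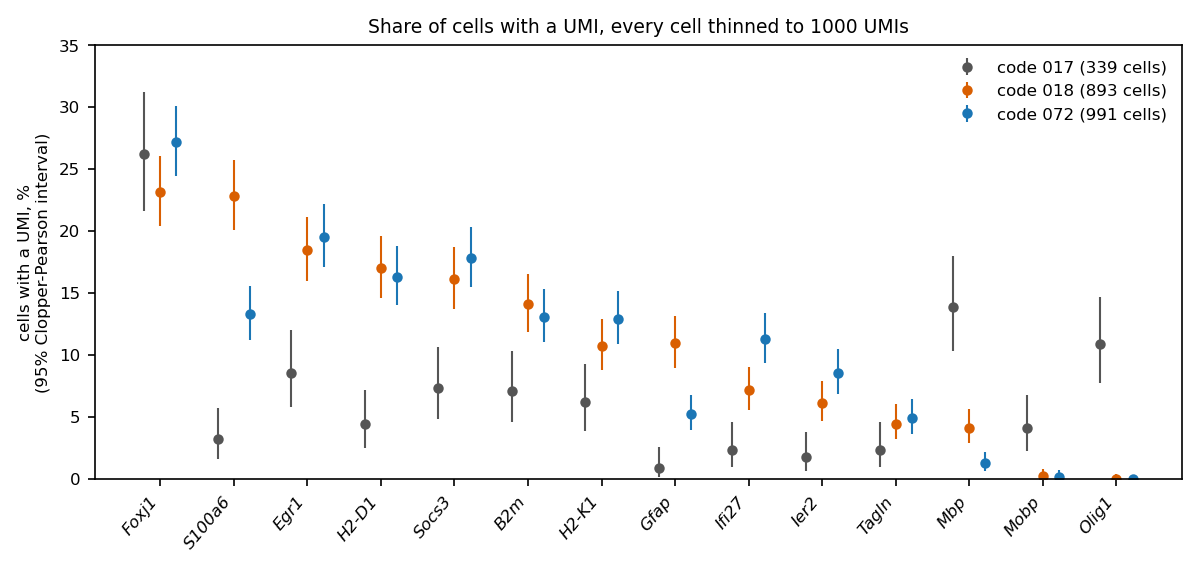
Share of cells (%) with at least 1 UMI of each gene after every cell was thinned to 1000 UMIs, with 95% Clopper-Pearson intervals, for code 017 (grey, 339 cells), 018 (orange, 893) and 072 (blue, 991). Foxj1 intervals overlap, H2-D1 and S100a6 are higher in 018 and 072, and Mbp and Olig1 are higher in 017.

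Immediate early genes, transcribed within minutes of a stimulus and also of tissue dissociation, made up 5 of the 17 higher genes. Of 22 listed, 18 were measured, 5 were at least 2-fold higher and 0 lower, and the other 13 did not pass. Of the 18, 17 were above 017 in both libraries, against 1311 of 3278 measured genes, and 5 of the 18 were measured only through 018 and 072. Among those 5 were Ier2, Dusp1, Klf6 and Zfp36, all under 50 CPM in 017, so of the higher genes only Egr1 was measured in 017 itself. These counts therefore describe the measured genes and not the list. Ier2 read 19.9, 82.9 and 89.7 CPM, or 4.16-fold (2.69 to 6.79) and 4.50-fold (2.92 to 7.32). The zinc finger factor gene Egr1 read 99.6, 227 and 225 CPM, the phosphatase gene Dusp1 45.5, 111 and 161 CPM and the factor gene Klf6 20.9, 58.3 and 91.2 CPM. Fos, the AP-1 subunit, was already at 930 CPM in 017 and read 1752 and 2093 CPM in the other 2. Zfp36, which speeds mRNA decay, was the closest to the line among the 17, at 42.7, 91.2 and 115 CPM, a smaller fold of 2.13.

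Egr1 was more often high in cells high for Ier2. Of 43 cells of code 018 with 3 or more Ier2 UMIs, 74.4% had 3 or more of Egr1, against 15.5% of the other 850. In code 072 it was 82.9% of 82 against 19.4% of 909. In code 017, 1 cell had 3 or more Ier2 UMIs. Depths were close in 018 (medians of 5265 and 5360 UMIs) and less so in 072 (7715 and 6994).

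Of 12 listed heat shock genes, which encode chaperones, all 12 were measured and 0 passed 2-fold in both libraries. All 12 were below code 017 in both, against 1210 of 3278 measured genes, with medians of -0.80 and -0.58. Hsp90aa1, the inducible cytosolic HSP90, read 8237 CPM in 017, 4901 in 018 and 6214 in 072. The mitochondrial co-chaperonin gene Hspe1 read 1179, 637 and 646 CPM. Hspa1b, an inducible HSP70 gene with a near-identical neighbour in Hspa1a, was just outside the lower line at 92.0, 30.4 and 46.4 CPM, a smaller fold of 1.98. Immediate early and heat shock genes both respond to handling, and whether the preparations differed was not tested.

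Cilia genes showed no such shift in their medians, which were -0.0073 and 0.088. Of 41 measured motile cilia genes, 19 were above 017 in both libraries and 9 below it in both. None of the 41 was 2-fold higher or lower in both, against 0.519% and 0.336% of all measured genes. With shares that small, a count of 0 says little for lists of this size, here and below. Of 16 measured ependymal identity genes 0 passed, with medians of 0.16 and 0.23. Cryab, a small chaperone gene on that list, read 265, 182 and 616 CPM, above 017 in 072 and below it in 018. Among 30 nuclear respiratory chain genes 0 passed, and among 12 mitochondrially encoded genes 8 were below 017 in both, against 1210 of 3278 measured genes, with medians of -0.15 and -0.14.

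**Figure D3:**
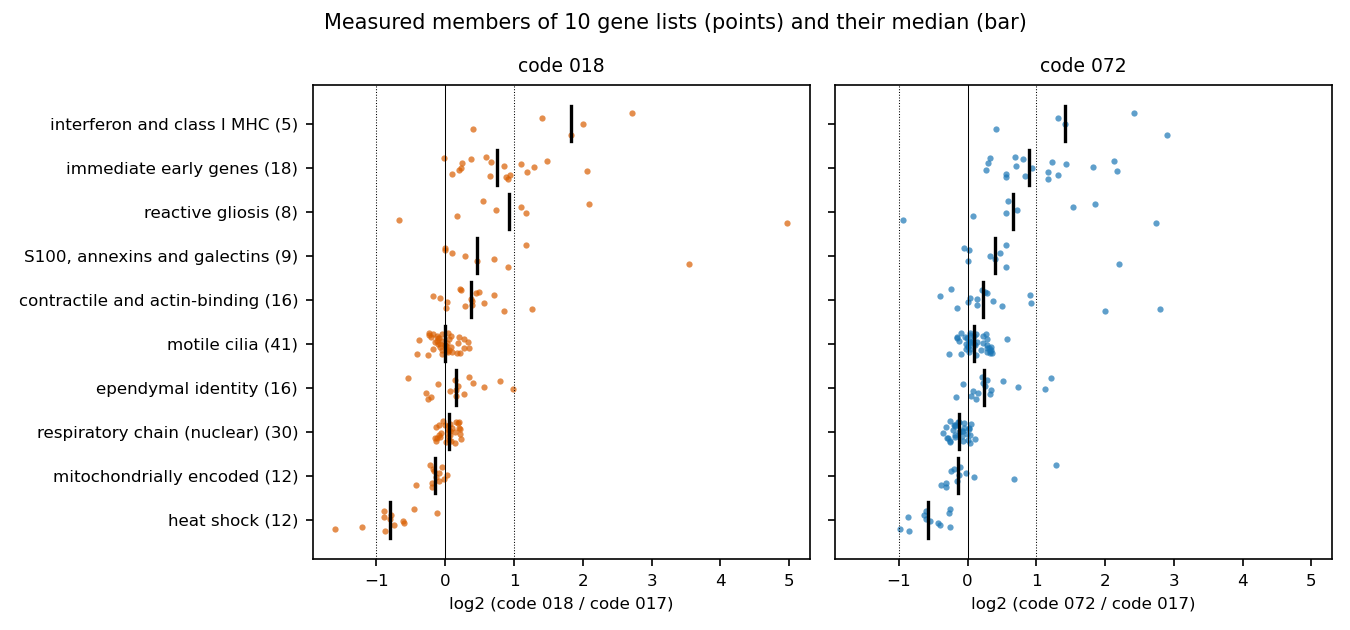
Measured members of 10 gene lists as points, by log2 ratio to code 017, for code 018 (left) and 072 (right); bars are list medians, dotted lines mark 2-fold and the number of measured members stands in brackets. All 12 heat shock genes lie to the left of 0 (medians -0.80 and -0.58) and the 41 cilia genes around it, while 2 of the 5 interferon and class I genes entered only through 018 and 072.

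Of 16 measured contractile genes, 1 was higher and 0 lower, against 17 and 11 of all 3278 measured genes. Above 017 in both libraries were 11 of the 16 and below it in both 1, against 1311 and 1210 of the 3278. Of the 16, 3 were measured only through 018 and 072, among them Tagln, the 1 higher gene, at under 50 CPM in 017. Tagln, the actin-binding transgelin of smooth muscle, read 27.5, 66.2 and 190.4 CPM. It was 2.40-fold (1.64 to 3.64) and 6.92-fold (4.80 to 10.4) the level in 017, and 1 cell of code 072 held 447 of its 1583 UMIs there. Acta2, smooth muscle actin, read 42.7, 76.9 and 170.1 CPM and was seen with it: of 73 cells of 072 with 3 or more Tagln UMIs 43.8% had 3 or more of Acta2, against 5.56% of the other 918. Of the 10 pericyte and smooth muscle markers, Acta2 among them, 9 had 0 UMIs in 017 and 6 in 018 and in 072. The 10 together made up 0.00427%, 0.00798% and 0.0174% of UMIs. The members Rgs5, Pdgfrb, Myh11 and Des read 0 to 0.19 CPM in the 3 libraries.

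Pgk1 and Tmem176b belonged to none of these groups. Pgk1, a glycolytic enzyme gene, read 38.0, 88.1 and 139.5 CPM, and 44.0, 68.4 and 207 in codes 019, 020 and 073. It has processed copies elsewhere in the genome, so its counts are uncertain. Of 13 glycolysis genes measured, Pgk1 was the only one higher, and their medians were -0.0014 and 0.14. Pgk1 was also the 1 member measured only through 018 and 072. Tmem176b, a membrane protein gene, read 62.6, 182 and 137 CPM.

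Oligodendrocyte-lineage transcripts were higher in code 017, though none of its cells met the drop rule. Mobp, a myelin protein gene, read 58.8 CPM in 017, 4.23 in 018 and 1.44 in 072, or 13.9-fold and 40.8-fold lower than in 017. Mbp, myelin basic protein, read 192, 51.9 and 17.2 CPM. Of the 11 lower genes, Olig1, an oligodendrocyte transcription factor, had the widest gap: 94 UMIs in 017 (89.2 CPM) and 1 UMI each in 018 and 072. The ratio to 017 was 0.00216 (5.4e-05 to 0.0123) in 018 and 0.00135 (3.38e-05 to 0.0077) in 072. Olig2, the factor that names the second genotype, had 9 UMIs in 9 cells of 017 and 0 in the other 2, where the ratio to 017 had an interval reaching up to 0.103 in 018 and 0.0642 in 072.

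These transcripts were spread thinly over the cells of code 017. Mbp had a UMI in 124 of 362 cells, 3 or more in 14 and at most 13 in any cell, and Olig1 had a UMI in 84 cells, 3 or more in 1. After thinning, Mbp was seen in 13.9% of cells of 017 (10.4 to 18.01), 4.14% of 018 (2.93 to 5.67) and 1.31% of 072 (0.70 to 2.23), against 62.7% of the dropped oligodendrocyte-lineage cells. Olig1 was seen in 10.9% (7.80 to 14.7), 0% and 0% of cells, against 35.3% of the dropped ones. The unthinned shares of Olig1 were 23.2%, 0.112% and 0.101%. The marker lists below hold the genes of the drop rule, whose limits per cell act differently in a shallow library, so their sums are description only. The oligodendrocyte marker list summed to 0.0813% of UMIs in 017, 0.0273% in 018 and 0.0232% in 072, and the progenitor list to 0.0106%, 0.000808% and 0.000253%. The drop genes Mag, Mog and Cldn11 had 38, 22 and 35 UMIs in 017 and at most 8 in either other library. The part of RNA from other cells in these UMIs was not tested.

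Other lower genes were of mixed function, and Car2, Trf and Aplp1 among them were also common in the dropped oligodendrocyte-lineage cells. Car2, carbonic anhydrase 2, read 50.3, 4.62 and 5.29 CPM and Trf, transferrin, 66.4, 12.3 and 14.0 CPM, both also made by oligodendrocytes. Aplp1, an amyloid precursor relative, read 85.4, 21.5 and 33.9 CPM. Abhd2, a lipid hydrolase gene, read 65.5, 15.96 and 13.3 CPM. Clasp2, a microtubule plus-end gene, read 70.2, 27.3 and 23.7 CPM, and the HSP90 co-chaperone gene Ahsa2 158, 56.9 and 74.2 CPM. Kdm6b, a histone H3 lysine demethylase gene, was nearest the line at 81.6, 39.8 and 39.4 CPM. After thinning, Aplp1 was seen in 57.7% of the dropped oligodendrocyte-lineage cells, Trf in 36.8% and Car2 in 33.8%. Abhd2, Clasp2, Ahsa2 and Kdm6b were seen in 4.48% to 8.96% of them. By the rule that chose them, both libraries were below 017 in each of the 11. Their counting intervals did not overlap that of 017.

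**Figure D4:**
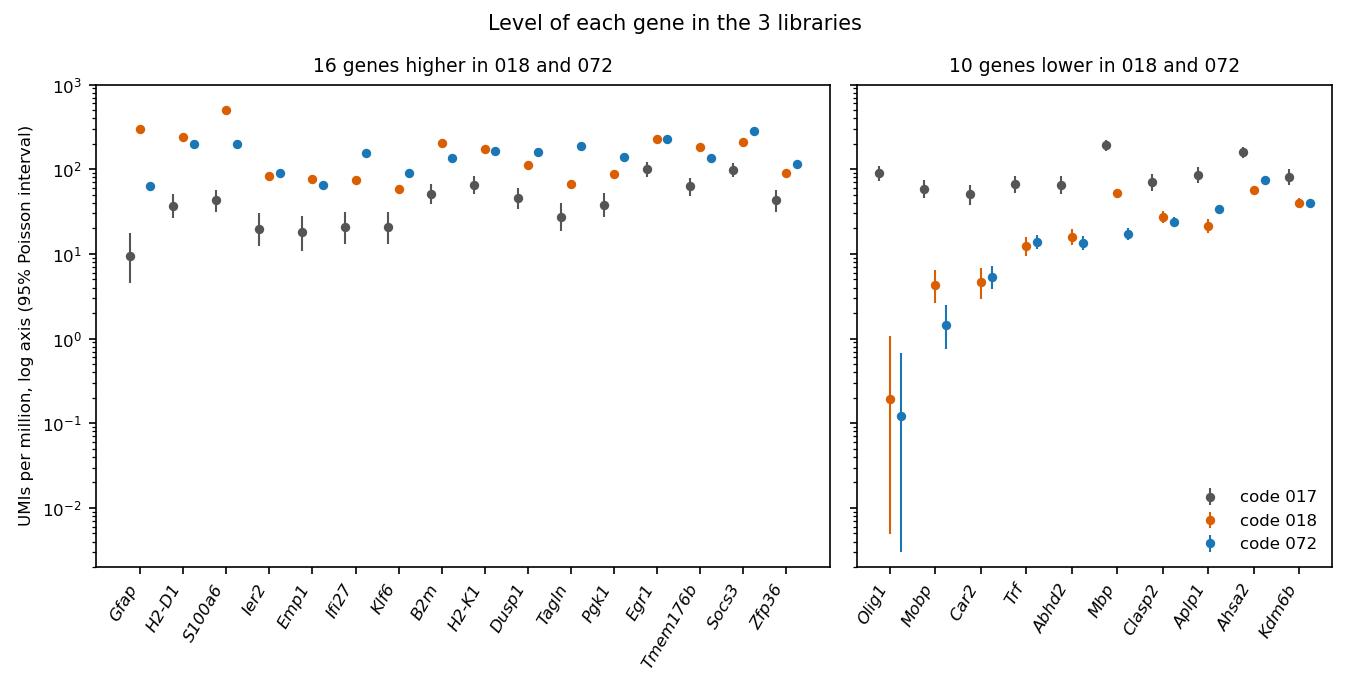
CPM (log axis) with exact 95% Poisson intervals for 16 of the 17 higher genes (left) and 10 of the 11 lower genes (right) in code 017 (grey), 018 (orange) and 072 (blue). By the rule that chose the genes, code 017 is the lowest of the 3 for each on the left and the highest on the right. Olig1 rests on 1 UMI in each of 018 and 072.

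Depth was brought closer by keeping only cells of 2000 to 4000 UMIs, an alternative chosen after seeing the data, which left 256, 110 and 63 cells with medians of 2772.5, 3382.5 and 3082 UMIs. All 17 higher genes stayed above 017 in both libraries and 7 of them by 2-fold or more, and all 11 lower genes stayed below it, 8 by 2-fold or more. Gfap read 2.75, 280.4 and 61.6 CPM in these cells, H2-D1 35.7, 211 and 154 CPM and Mbp 169, 19.4 and 20.5 CPM. The 10 higher genes no longer 2-fold above 017 in both were S100a6, Ifi27, B2m, H2-K1, Dusp1, Tagln, Pgk1, Tmem176b, Socs3 and Zfp36, and the 3 lower genes were Clasp2, Ahsa2 and Kdm6b. S100a6 read 39.9 CPM in 017 and 333 and 71.9 in 018 and 072, H2-K1 72.9, 197 and 118 CPM, B2m 57.7, 130.5 and 113 CPM and Tagln 27.5, 55.5 and 46.2 CPM. Ifi27 read 17.9, 27.8 and 108 CPM and Socs3 121, 219 and 139 CPM.

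Codes 018 and 072 were not alike in all respects. Of 3329 genes measured in either, 6 were at least 2-fold higher in 018 (0.18%) and 37 in 072 (1.11%). The 6 were Ctss, Lyz2, Gfap, Mbp, S100a6 and Cav2, and 1 cell of code 018 held 208 of the 274 Ctss UMIs just as 1 held 298 of 503 for Lyz2. Lrrc10b, a leucine-rich repeat gene, read 36.3 CPM in 018 and 179 in 072, with 54.1 in 017 and 219 in 073. Tagln was 2.88-fold higher in 072 than in 018. The 4 haemoglobin genes, which have near-identical copies, were 0 in 018, and in 072 the highest cell held 4928 of 5030 UMIs of Hbb-bs, 2728 of 2755 of Hba-a1, 2080 of 2112 of Hba-a2 and 1031 of 1042 of Hbb-bt.

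The 28 genes were then looked up in the bulk libraries, which took no part in choosing cells or genes. The bulk values carry no code, so they do not say what the codes are. A bulk value cannot tell fewer cells of a type from less RNA per cell. Olig2 itself read 2.2 to 195.2 normalised counts in the 6 Foxj1-tdT libraries and 1690 to 3961 in the 6 Foxj1-Olig2-tdT libraries, on the side their labels give. Values are normalised counts, log2 fold changes carry their SE, and adjusted p-values are from limma with Benjamini-Hochberg adjustment over 15811 genes. In Foxj1-tdT cells 13.8% of genes were higher at 5 dpi than uninjured and 9.21% lower, and in Foxj1-Olig2-tdT cells 17.2% and 14%.

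Of the 17 higher genes, 8 rose and 0 fell in Foxj1-tdT cells, with a median log2 fold change of 0.94 against 0.037 over all genes. Entering the closely similar uninjured libraries as 1 (r = 0.989 across genes, against 0.864 to 0.928 in the other pairs) left 4, and leaving out 1 library left 4 without uninjured replicate 1, 5 without uninjured replicate 2 and 5 without 5 dpi replicate 1. In Foxj1-Olig2-tdT cells 10 rose and 1, Pgk1, fell (-0.34 ± 0.11, adjusted p = 0.0428), with a median of 1.38 against 0.12. No gene of the 28 had an adjusted interaction p under 0.05 between genotypes in the limma fit, which does not show that the responses were alike.

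The level of Gfap was 959 and 919 in the uninjured Foxj1-tdT libraries, against 23346 and 10825 for 5 dpi (a log2 difference of 4.08 ± 0.61, adjusted p = 0.0014). In Foxj1-Olig2-tdT cells it read 186 and 588 against 5895 and 1928 (3.34 ± 0.61, adjusted p = 0.00229). S100a6 read 179 and 171 against 10133 and 4832 in Foxj1-tdT (5.31 ± 0.52, adjusted p = 0.000166), and in the other genotype 30.1 and 109 against 10382 and 11358 (7.54 ± 0.52, adjusted p = 6.85e-06). Both genes were higher at 5 dpi in every library, with no overlap.

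Of the class I genes, B2m passed the test in bulk and H2-D1 and H2-K1 did not. On simulated data the fit called 4 of 50 genes changed by a log2 of 1, so not passing does not show a gene unchanged. B2m read 1220.2 and 1112 in uninjured and 13107 and 5653 in 5 dpi Foxj1-tdT libraries (2.88 ± 0.37, adjusted p = 0.000691). It also rose in Foxj1-Olig2-tdT cells (2.28 ± 0.37, adjusted p = 0.00123). H2-D1 read 1059.5 and 1073 against 3765 and 993, so that the groups overlapped (0.86 ± 0.51, adjusted p = 0.263). With the Olig2 allele H2-D1 read 700.4 and 1325 against 1932 and 1840, with no overlap (0.97 ± 0.51, adjusted p = 0.183). H2-K1 read 1995 and 1969 against 2832 and 1132 (-0.15 ± 0.37, adjusted p = 0.819). In Foxj1-tdT cells 5 dpi replicate 1 was the higher of its pair for all 3 genes.

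Among the rest, Emp1 (1.62 ± 0.36, adjusted p = 0.0101), Ifi27 (1.58 ± 0.42, adjusted p = 0.023), Tagln (4.79 ± 1.24, adjusted p = 0.0206) and Tmem176b rose in Foxj1-tdT cells. Ier2 read 657 and 779.5 against 1061 and 799.6 there (adjusted p = 0.589) and Egr1 5965 and 6216 against 6055 and 8850.1 (adjusted p = 0.74). In Foxj1-Olig2-tdT cells Ier2 (2.32 ± 0.43, adjusted p = 0.00244) and Egr1 (1.67 ± 0.48, adjusted p = 0.0246) rose, and uninjured replicate 2 was the lower of its pair for both. Socs3 passed in neither genotype (-0.49 ± 0.26, adjusted p = 0.216, and 0.35 ± 0.26, adjusted p = 0.347).

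Of the 11 lower genes, 2 rose and 1 fell in Foxj1-tdT cells, and 1 rose and 3 fell in Foxj1-Olig2-tdT cells, with medians of 0.028 and -0.28. Clasp2 fell in both (-0.88 ± 0.16, adjusted p = 0.00371, and -0.81 ± 0.16, adjusted p = 0.00365). Olig1 rose in both, from 0 and 0.9 to 64.6 and 1159 in Foxj1-tdT cells (adjusted p = 0.0186) and in the other genotype from 0 and 1 to 536.9 and 52.5 (adjusted p = 0.0217). Mbp read 8543 and 8896 against 391 and 881 in Foxj1-tdT cells without passing (-3.89 ± 1.42, adjusted p = 0.0753), and Mobp fell with the Olig2 allele (-3.82 ± 1.16, adjusted p = 0.0301).

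**Figure D5:**
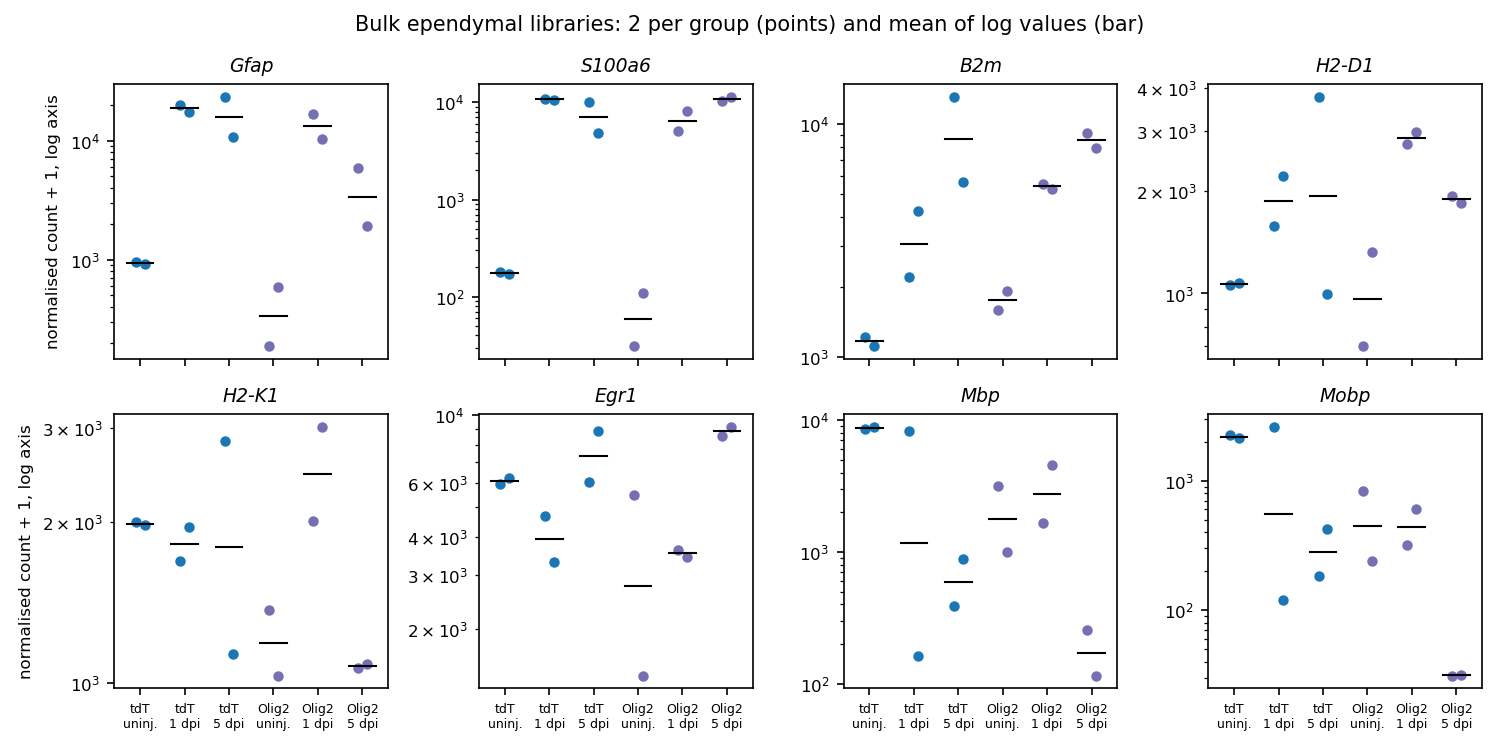
Normalised count + 1 (log axis) of 8 of the genes in the 12 bulk libraries, as points, with the mean of the log values as a bar; tdT groups are blue and Olig2 groups, which are Foxj1-Olig2-tdT, purple. Gfap, S100a6 and B2m are higher at 5 dpi than uninjured in both genotypes without overlap, while the Foxj1-tdT groups of H2-D1 and H2-K1 overlap.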

How the data were processed

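The authors deposited single-cell UMI counts for 27998 genes in every cell that passed their filter, with a cell table whose library code was used as other, non-numeric information per the labels and file headers. Bulk values were normalised counts, treated as a signal because the authors deposited them rounded and scaled by a method not given in the sources used here. Per the submitters' processing notes the tools included Cell Ranger and the build was mm10, without versions. Members, gene lists (24 programme and 12 marker lists), motifs and tests were chosen with earlier results of these data known.

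Cells named without a code belong to code 017. UMIs were summed per code over the kept cells and scaled to CPM. Ratios have exact conditional Poisson and shares exact Clopper-Pearson intervals at the 95% level, for counting error only. A gene with fewer than 3 UMIs in a library was set to that floor for ranking. Thinning drew 1000 UMIs per cell and left out 23 shallower cells of code 017. No doublet caller was run. Named genes were Foxj1, Olig2, the 15 highest and 15 lowest past 2-fold in both libraries by the smaller ratio, up to 4 such members of each list and the 5 widest on each side between 018 and 072; Zfp36, Cav2 and other genes outside it were named after their values were seen.

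Bulk log2(value + 1) was fitted with limma 3.58.1 in R 4.3.3 (trended empirical Bayes, 6 group means, at least 10 in 2 libraries), checked first on simulated data. There it called 4 of 50 genes changed by a log2 of 1, 25 of 50 at 2, 37 of 50 at 3 and 34 of 50 at 4. A gene that did not pass is therefore not shown to be unchanged. Whether replicates came from different animals is not in the labels, so a p-value here reflects only how far these libraries vary, possibly for technical reasons. Other tools were scipy 1.17.1, numpy 2.4.6, matplotlib 3.10.9 and pandas 2.3.3. The alternatives were other scalings, filters, thresholds and cell sets, each library left out and, in bulk, a pseudocount of 8, quantile normalization, no filter and a replicate block. The single-cell and bulk ATAC data were not analysed here, and some genes within the counts are not reported here by name.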

Additional observations from a re-analysis of the deposited data

How the results depend on the processing

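With every cell thinned to 1000 UMIs, 31 genes were at least 2-fold higher in both libraries and 18 lower, of which 13 and 7 were among the reported genes. Without the CPM minimum the counts were 276 and 65, and 368 between codes 018 and 072. At 3-fold they were 6, 7 and 13. Leaving out code 018 or 072 gave 28 to 57 higher and 13 to 17 lower. In cells of 2000 to 4000 UMIs, chosen after seeing the data, the counts were 9 and 18, and 178 between 018 and 072. Of the 9 and 18, 4 and 8 were among the reported genes. Of the single-gene ratios, 38 moved by more than their interval, 269 did not and 0 reversed.

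In bulk, leaving out 1 library gave 1317 to 2525 genes and 4 to 8 of the 17 in Foxj1-tdT cells, and 3011 to 4899 genes and 7 to 12 of the 17 in Foxj1-Olig2-tdT cells. Entering the uninjured Foxj1-tdT pair as 1 library gave 1325 genes and 4 of the 17. Under quantile normalization Car2 reversed to -0.098 in Foxj1-tdT cells. With 1 library left out, log2 fold changes changed sign in genes not called in the reported fit. In Foxj1-tdT cells Abhd2 ranged from -0.13 to 0.19, Car2 from -0.060 to 0.68, Egr1 from -0.0081 to 0.54, H2-D1 from -0.10 to 1.82 and H2-K1 from -0.81 to 0.51. In Foxj1-Olig2-tdT cells Ahsa2 ranged from -0.36 to 0.58, Dusp1 from -0.94 to 0.61, H2-K1 from -0.35 to 0.061, Socs3 from -0.088 to 0.79, Trf from -0.21 to 1.11 and Zfp36 from -0.58 to 1.46. The cause was not tested. Replicate numbers did not pair the bulk samples (correlations -0.030 to 0.022), and a replicate block gave 3514 and 4754 genes and 8 and 10 of the 17. Depth limits genes such as Gfap, with 10 UMIs in code 017.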
